A study of Mus musculus with 20 samples.

Results

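Collagen genes were defined by their names: probes, other than controls, whose gene name in the array files, or whose current symbol for the same accession, has the form of a collagen alpha chain gene. The rule found 80 probes for 42 genes among 41174 probes and 28786 gene symbols. Where a gene had several probes, as 28 genes did, the probe with the brightest mean signal over all arrays was read. By class, 11 genes encode fibrillar chains, 6 encode the type IV chains of basement membranes and 25 encode other collagens. Emid2 and E330026B02Rik of the files were included through their accessions as Col26a1 and Col6a6.

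The arrays compared WT(HFD) with CD44KO(HFD) mice, to ask which genes respond to the loss of the hyaluronan receptor CD44 in diet-induced obesity. All were male C57BL/6 mice, 7 months old, on a diet of 35% fat for 21 weeks, and the CD44-deficient line, crossed back onto C57BL/6J, lacks CD44 in every cell type. Liver and white adipose tissue (WAT) of each genotype were read on 5 arrays each, 20 in all, and the labels do not tie the arrays to single animals, so that p-values measure the spread between these arrays. Every group was on the high fat diet, so that no lean baseline enters the values below.

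Collagens are secreted proteins whose chains wind into a helix built of Gly-X-Y repeats. Fibrillar collagens, types I, III and V above all, form the banded fibers that accumulate when a liver scars, and activated stellate cells and portal fibroblasts are their main source there. Type IV chains assemble into the sheet under endothelium and epithelium, type VI forms beaded microfibrils around fat cells and many other cells, and types XV and XVIII sit at the border between basement membrane and connective tissue.

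The repeat can be seen in the probes themselves. In 3 of the 80 collagen probes, and in 0 of the other 41094 probes of the array, codons that start with GG, as all codons of glycine do, came back every 9 bases through the whole 60 bases. They are shown because they read the helix of 3 minor fibrillar chains, with those codons in capitals.
Col5a1: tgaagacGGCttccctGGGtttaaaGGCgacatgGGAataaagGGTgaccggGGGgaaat
Col5a3: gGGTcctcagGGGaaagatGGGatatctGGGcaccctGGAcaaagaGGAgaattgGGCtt
Col11a2: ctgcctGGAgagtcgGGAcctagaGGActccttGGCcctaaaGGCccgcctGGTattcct
In the files these probes lie on chr2:27994034-27996457 (plus strand), chr9:20655471-20656200 (minus strand) and chr17:32131401-32131567 (plus strand) of build mm7, spans longer than 60 bases, so that each crosses at least 1 intron. None of the 3 was the brightest probe of its gene. In liver their differences between genotypes were -0.24 for Col5a1, -0.15 for Col5a3 and 0.37 for Col11a2 on the log2 scale, with adjusted p-values of 0.292, 0.576 and 0.415.

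Signals are given as log2 of the processed signal minus the 75th percentile of the array, so that 0 stands for that percentile and levels of different probes cannot be set against each other. Differences are CD44KO(HFD) minus WT(HFD) on this scale, with the standard error of the fit after ±. Where the values of 10 arrays follow a gene, replicates 1 to 5 of WT(HFD) come before replicates 1 to 5 of CD44KO(HFD). A probe was tested where 3 or more of the 5 arrays of either genotype detected it well above background, with limma and Benjamini-Hochberg adjustment over all 24688 probes tested in liver or 27652 in WAT, at a threshold of 0.05. The brightest of 3 Cd44 probes fell from 0.48 ± 0.28 to -3.74 ± 0.41 in liver and from 4.07 ± 0.37 to -0.51 ± 0.13 in WAT (SD, n = 5). Another fell by 4.57 and 4.28, and the third, which was detected on only 3 WT(HFD) arrays in liver and 2 of the CD44KO(HFD) arrays, differed by 0.20 in liver (adjusted p = 0.888). The share of spots detected well above background was 57.4% to 61.9% on liver arrays, 63.2% to 69.5% on 9 WAT arrays and 89.5% on the WAT array of WT(HFD) replicate 1, which correlated with its group at a mean r of 0.88.

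In liver 10 of the 30 tested collagen genes were lower in CD44KO(HFD) mice and 3 were higher, against 5.75% and 7.85% of all probes tested. The median difference of the 30 genes was -0.31, and that of all probes was 0.08, with 18 of 30 below 0 against 38.7% of all probes. Among fibrillar genes 6 of 10 were lower and 0 higher, with a median of -1.09. Among type IV genes 0 of 4 were lower and 1 was higher, with a median of -0.18, and among the others 4 of 16 were lower and 2 higher, with a median of -0.12. In whole liver, fewer collagen-producing cells and less collagen RNA per cell cannot be told apart. The count of lower genes rests on several arrays: it was 4 without WT(HFD) replicate 1, 3 without replicate 2, and 3, 5 and 3 without CD44KO(HFD) replicates 1, 2 and 4, while it was 12 without CD44KO(HFD) replicate 3. The share of all probes called lower moved too, to 2.87%, 1.85%, 2.65%, 3.24%, 2.49% and 7.59% in these 6 fits. Col6a3, Col8a1 and Col15a1 passed the threshold whichever liver array was left out, and no higher gene did. The count of higher genes was 0 without WT(HFD) replicate 1, 2 or 5 or CD44KO(HFD) replicate 1, 2 or 4. It was 1 without WT(HFD) replicate 3. Higher calls over all 24688 probes fell too, from 1938 to 816, 401, 942, 701, 830 and 609 in the fits with 0. Without WT(HFD) replicate 3 they were 1199.

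**Figure D1:**
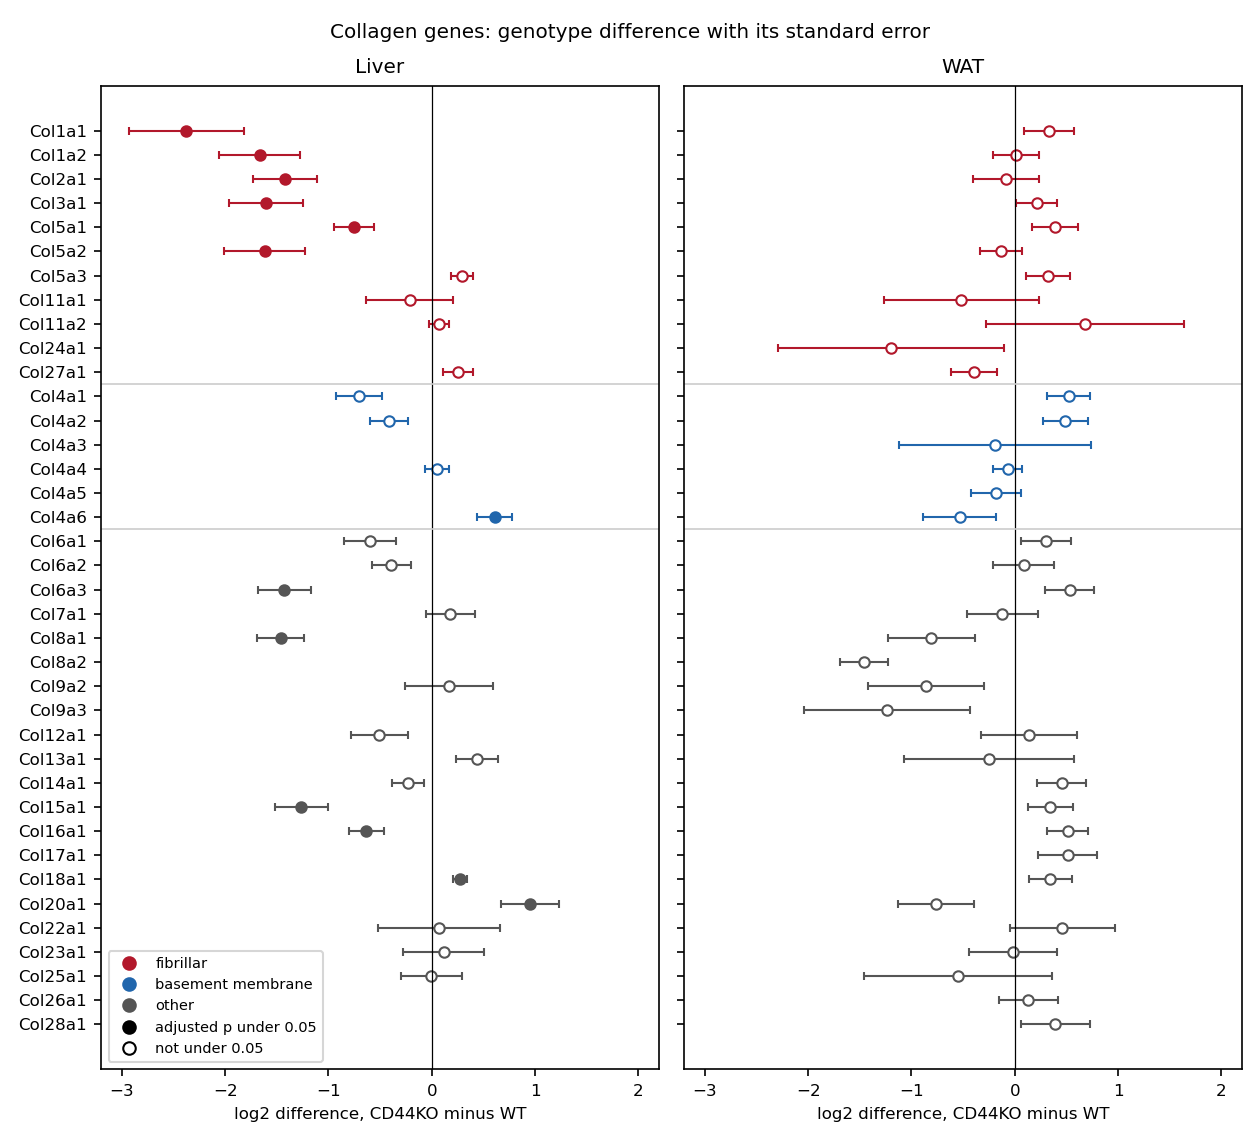
Each point is the difference of a collagen gene between CD44KO(HFD) and WT(HFD) mice on the log2 scale (x axis), in liver on the left and WAT on the right, with its standard error as a bar, and genes are ordered by class on the y axis. Filled points had an adjusted p under 0.05: in liver 6 fibrillar genes lie between -2.38 and -0.75, and in WAT no point is filled.

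Type I collagen, the main protein of scar fibers, showed the widest gap. For Col1a1, which encodes its alpha 1 chain, the WT(HFD) livers read 3.49, 2.77, 2.66, 2.03 and 2.46 in replicates 1 to 5, and the CD44KO(HFD) livers -0.33, -0.92, 2.30, -0.39 and 0.86. Col1a1 was thus 5.19-fold lower in the means (difference -2.38 ± 0.56, adjusted p = 0.0255), with CD44KO(HFD) replicate 3 inside the WT(HFD) range and the other 4 below it. A second Col1a1 probe gave -2.13 with an adjusted p of 0.0248, and the third was too dim to be tested. For Col1a2, its alpha 2 chain, the values were 4.67, 4.09, 3.70, 3.41 and 3.84 in WT(HFD) and 1.88, 1.54, 3.64, 1.74 and 2.59 in CD44KO(HFD) livers, a difference of -1.67 ± 0.39 (adjusted p = 0.0257). Here too only replicate 3 of the CD44KO(HFD) livers reached the WT(HFD) range. Each of these 2 genes kept an adjusted p under 0.05 in 5 of the 10 fits that leave out 1 liver array.

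Type III collagen, which forms fine fibers together with type I, has a single chain gene. Col3a1 read 3.93, 3.46, 3.60, 2.95 and 3.35 in WT(HFD) livers and 1.42, 0.88, 3.03, 1.66 and 2.28 in CD44KO(HFD) livers, and was lower by 3.04-fold (-1.60 ± 0.36, adjusted p = 0.0226). The array of CD44KO(HFD) replicate 3 was again the only one to overlap the WT(HFD) livers.

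The 250 bases before the annotated starts of Col1a2 and Col3a1, genes whose products share the same fibers, and of Col6a3, one of the genes that passed in every fit, are shown from RefSeq (GRCm38.p6), 5′ to 3′ on the strand of the gene. Capitals mark matches on either strand to CCAAT, to the TATA box letters TATAA and to the GC box letters GGGCGG. The windows are chr6:4505368-4505617 (plus strand), chr1:45311288-45311537 (plus strand) and chr1:90843972-90844221 (minus strand).
Col1a2: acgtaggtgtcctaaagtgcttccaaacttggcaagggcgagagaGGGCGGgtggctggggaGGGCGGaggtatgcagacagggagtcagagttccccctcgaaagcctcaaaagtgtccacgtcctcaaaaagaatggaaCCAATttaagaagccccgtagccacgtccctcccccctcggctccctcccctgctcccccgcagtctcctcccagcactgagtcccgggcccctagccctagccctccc
Col3a1: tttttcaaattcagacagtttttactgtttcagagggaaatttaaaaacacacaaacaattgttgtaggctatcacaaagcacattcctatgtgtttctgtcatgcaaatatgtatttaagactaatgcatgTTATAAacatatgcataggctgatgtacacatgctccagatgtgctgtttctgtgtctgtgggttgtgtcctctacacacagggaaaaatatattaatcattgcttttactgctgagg
Col6a3: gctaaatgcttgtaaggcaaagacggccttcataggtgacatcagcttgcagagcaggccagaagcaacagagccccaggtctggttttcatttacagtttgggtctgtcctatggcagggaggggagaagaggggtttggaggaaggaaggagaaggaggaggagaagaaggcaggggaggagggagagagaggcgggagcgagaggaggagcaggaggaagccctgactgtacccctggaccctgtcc
These windows did not look alike. That of Col1a2 was 62.0% G and C, with 1 CCAAT match and 2 GGGCGG matches, and that of Col3a1 was 35.2% G and C and held TATAA on both strands in 1 stretch of 6 bases, TTATAA. That of Col6a3, at 57.2%, held no match. Of the 33 collagen genes on the array with a window in the table, 12 had CCAAT (36.4%), 7 had TATAA (21.2%) and 19 had GGGCGG (57.6%), and among all 32851 windows the shares were 33.8%, 22.8% and 32.7%. Of the 7 genes lower in liver that have a window, 2, 1 and 4 held them. A match is a run of letters and not a known binding site.

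Type V collagen sits inside type I fibers and limits their width. Col5a2 read -1.28, -1.66, -2.41, -2.38 and -1.83 in WT(HFD) livers and -4.05, -4.30, -2.14, -3.90 and -3.26 in CD44KO(HFD) livers, and was 3.07-fold lower (-1.62 ± 0.40, adjusted p = 0.0285). Its probe lies 28.0 kb from that of Col3a1 on chromosome 1, and the pair differed by nearly the same amount. Col5a1 had values of 0.90, 0.77, 0.43, 0.13 and 0.29 and -0.37, -0.59, 0.29, -0.44 and -0.13, a smaller difference of -0.75 ± 0.19 (adjusted p = 0.0333), and its second probe, the helix probe shown above, did not pass. Replicate 3 of the CD44KO(HFD) livers was the one array of its group within the WT(HFD) values for both genes. The type V chain gene Col5a3 did not pass and lay on the other side of 0 (0.29 ± 0.11, adjusted p = 0.0954), and passed as higher without CD44KO(HFD) replicate 3 (0.38, 0.0149). Col5a2 and Col5a1 are the less stable of the fibrillar calls, with an adjusted p under 0.05 in 3 and 2 of the 10 fits without 1 liver array.

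Type II collagen is the fibrillar collagen of cartilage, yet its gene was among the lower ones in liver. Col2a1 read -1.65, -2.0, -1.73, -2.48 and -2.23 in WT(HFD) and -3.71, -4.35, -2.47, -3.48 and -3.18 in CD44KO(HFD) livers by its brightest probe, which was well above background on all WT(HFD) and 4 of 5 CD44KO(HFD) arrays (-1.42 ± 0.31, adjusted p = 0.0205). CD44KO(HFD) replicate 3 touched the lowest WT(HFD) value and the other 4 lay below it. Another probe that shares 40 of its 60 bases with the first gave 0.02 (adjusted p = 0.955), so that the call depends on the probe. Both are shown, with the 20 bases that they do not share in capitals, because the 2 probes of this gene gave different values. Why they differ was not tested.
A_51_P317141: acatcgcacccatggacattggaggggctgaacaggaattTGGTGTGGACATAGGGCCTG
A_52_P216436: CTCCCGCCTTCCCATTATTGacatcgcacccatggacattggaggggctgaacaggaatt
They lie on chr15:97979237-97979296 and chr15:97979257-97979316 of build mm7, minus strand, and the 80 bases they cover together hold 1 open reading frame. The first was printed on 10 spots per array, the second on 1. When the brightest probe of a gene was chosen within liver instead of over all arrays, the second probe was taken, Col2a1 was not among the lower genes, and the fibrillar median was -0.48 instead of -1.09. Of 6 chondrocyte markers on the array, Matn1, Matn3 and Hapln1 were well above background on none of the 10 liver arrays, and Acan and Chad, the 2 that could be tested, differed by 0.34 and 0.05 (adjusted p = 0.516 and 0.791).

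The other fibrillar genes tested in liver did not pass. Col11a1 and Col11a2, chains of the cartilage type XI, differed by -0.21 ± 0.42 and 0.07 ± 0.10, and Col27a1 by 0.26 ± 0.15 (adjusted p = 0.766, 0.633 and 0.258). Col24a1 was too dim to be tested.

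Among the basement membrane genes, Col4a1 and Col4a2, whose products join in the common form of type IV collagen, were below the WT(HFD) mean without passing. Col4a1 read 1.26, 1.01, 0.52, 0.62 and 0.57 in WT(HFD) livers and 0.09, -0.33, 0.68, -0.33 and 0.36 in CD44KO(HFD) livers (-0.70 ± 0.22, adjusted p = 0.0614). Col4a2 read 1.39, 1.23, 0.69, 0.89 and 0.95 and 0.74, 0.24, 1.12, 0.30 and 0.70 (-0.41 ± 0.19, adjusted p = 0.157), and the genotypes overlapped for both. The 2 genes lie head to head, and their promoter windows in RefSeq (GRCm38.p6), chr8:11312777-11313076 on the minus strand and chr8:11312555-11312854 on the plus strand, share 78 bases. Without CD44KO(HFD) replicate 3, Col4a1 passed at -0.85 with an adjusted p of 0.0225, while Col4a2 did not. Col4a6, a chain of the rarer basement membranes, was the type IV gene that was higher, from -0.50, -0.82, -0.71, -0.59 and -0.40 in WT(HFD) to 0.22, 0.51, 0.04, -0.29 and -0.45 in CD44KO(HFD) livers (0.61 ± 0.17, adjusted p = 0.0453). The genotypes overlapped through CD44KO(HFD) replicate 5. The second tested Col4a6 probe gave -0.64 (adjusted p = 0.271), the opposite sign. It was dim, well above background on 3 WT(HFD) and 0 CD44KO(HFD) livers. The mean of the tested Col4a6 probes gave -0.01 (adjusted p = 0.969). Col4a4 differed by 0.05 ± 0.12 (adjusted p = 0.789), and Col4a3 and Col4a5 were above background on no liver array.

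The 3 collagen genes that were lower in every fit without 1 array belong to other classes. Col6a3, the long chain of type VI collagen, read 1.89, 1.26, 1.27, 0.88 and 1.17 in WT(HFD) livers and -0.28, -0.52, 0.74, -0.52 and -0.07 in CD44KO(HFD) livers (-1.43 ± 0.26, adjusted p = 0.0133). Col8a1, a network-forming chain of vessel walls, read 0.75, 0.71, 0.37, 0.08 and 1.0 and -0.81, -1.42, -0.24, -1.09 and -0.83 (-1.46 ± 0.23, adjusted p = 0.01). Col15a1 read -0.72, -1.28, -1.51, -1.39 and -1.13 and -2.85, -3.01, -1.59, -2.58 and -2.30 (-1.26 ± 0.26, adjusted p = 0.0181). The genotypes did not overlap for these 3, where 4.22% of all probes were so separated with CD44KO(HFD) lower. Each exact two-sided permutation p was thereby 0.0079, the smallest that relabelling 5 against 5 arrays allows. That p restates the lack of overlap and is no further support. Col6a1 and Col6a2, the partners of Col6a3 in the type VI molecule, did not pass. Col6a1 read 0.05, -0.64, -0.90, -1.10 and -0.66 and -1.57, -1.72, -0.57, -1.35 and -1.02 (-0.60 ± 0.26, adjusted p = 0.138). Col6a2 read -1.76, -2.0, -1.82, -2.55 and -2.02 and -2.17, -2.97, -2.20, -2.52 and -2.26 (-0.39 ± 0.19, adjusted p = 0.182). The genotypes overlapped for both partners. The second Col6a2 probe did pass, at -0.87 with an adjusted p of 0.046, and the second probe of Col8a1 did not, at -0.94 with an adjusted p of 0.105.

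The remaining calls were smaller or on dim probes. Col16a1, of the collagens that attach to fibrils, read 1.41, 1.21, 0.76, 0.87 and 0.92 in WT(HFD) and 0.24, 0.10, 0.89, 0.25 and 0.53 in CD44KO(HFD) livers (-0.63 ± 0.17, adjusted p = 0.0383). Again CD44KO(HFD) replicate 3 alone of its group reached the WT(HFD) values. Col18a1, the source of endostatin, rose slightly but without overlap, from 7.52, 7.51, 7.64, 7.61 and 7.53 to 7.88, 7.88, 7.78, 7.95 and 7.68 (0.27 ± 0.07, adjusted p = 0.0333). Hepatocytes are a known source of Col18a1 in liver, and its direction was opposite to that of its relative Col15a1. Col20a1, a minor fibril-associated collagen, rose from -4.13, -4.10, -4.35, -3.69 and -3.72 to -2.82, -2.04, -3.48, -3.32 and -3.56 (0.95 ± 0.28, adjusted p = 0.0483), on a probe far below the 75th percentile of the array. A second Col18a1 probe gave 0.25 with an adjusted p of 0.0758. The genotypes did not overlap for Col18a1 or Col20a1, against 7.49% of all probes in that direction.

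The 17 tested genes that did not pass in liver ranged from -0.70 to 0.44, with 8 below 0 and 9 above, and adjusted p-values from 0.0614 to 0.996. Besides those named above they are Col7a1, Col9a2, Col12a1, Col13a1, Col14a1, Col22a1, Col23a1 and Col25a1. Col14a1, a fibril-associated collagen of fibroblasts and stellate cells, read 2.67 ± 0.24 in WT(HFD) and 2.43 ± 0.28 in CD44KO(HFD) livers (SD, n = 5) and differed by -0.23 ± 0.16 (adjusted p = 0.325). The 12 genes not tested in liver are Col4a3, Col4a5, Col6a6, Col8a2, Col9a1, Col9a3, Col10a1, Col17a1, Col19a1, Col24a1, Col26a1 and Col28a1, of which 8 were well above background on no liver array.

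**Figure D2:**
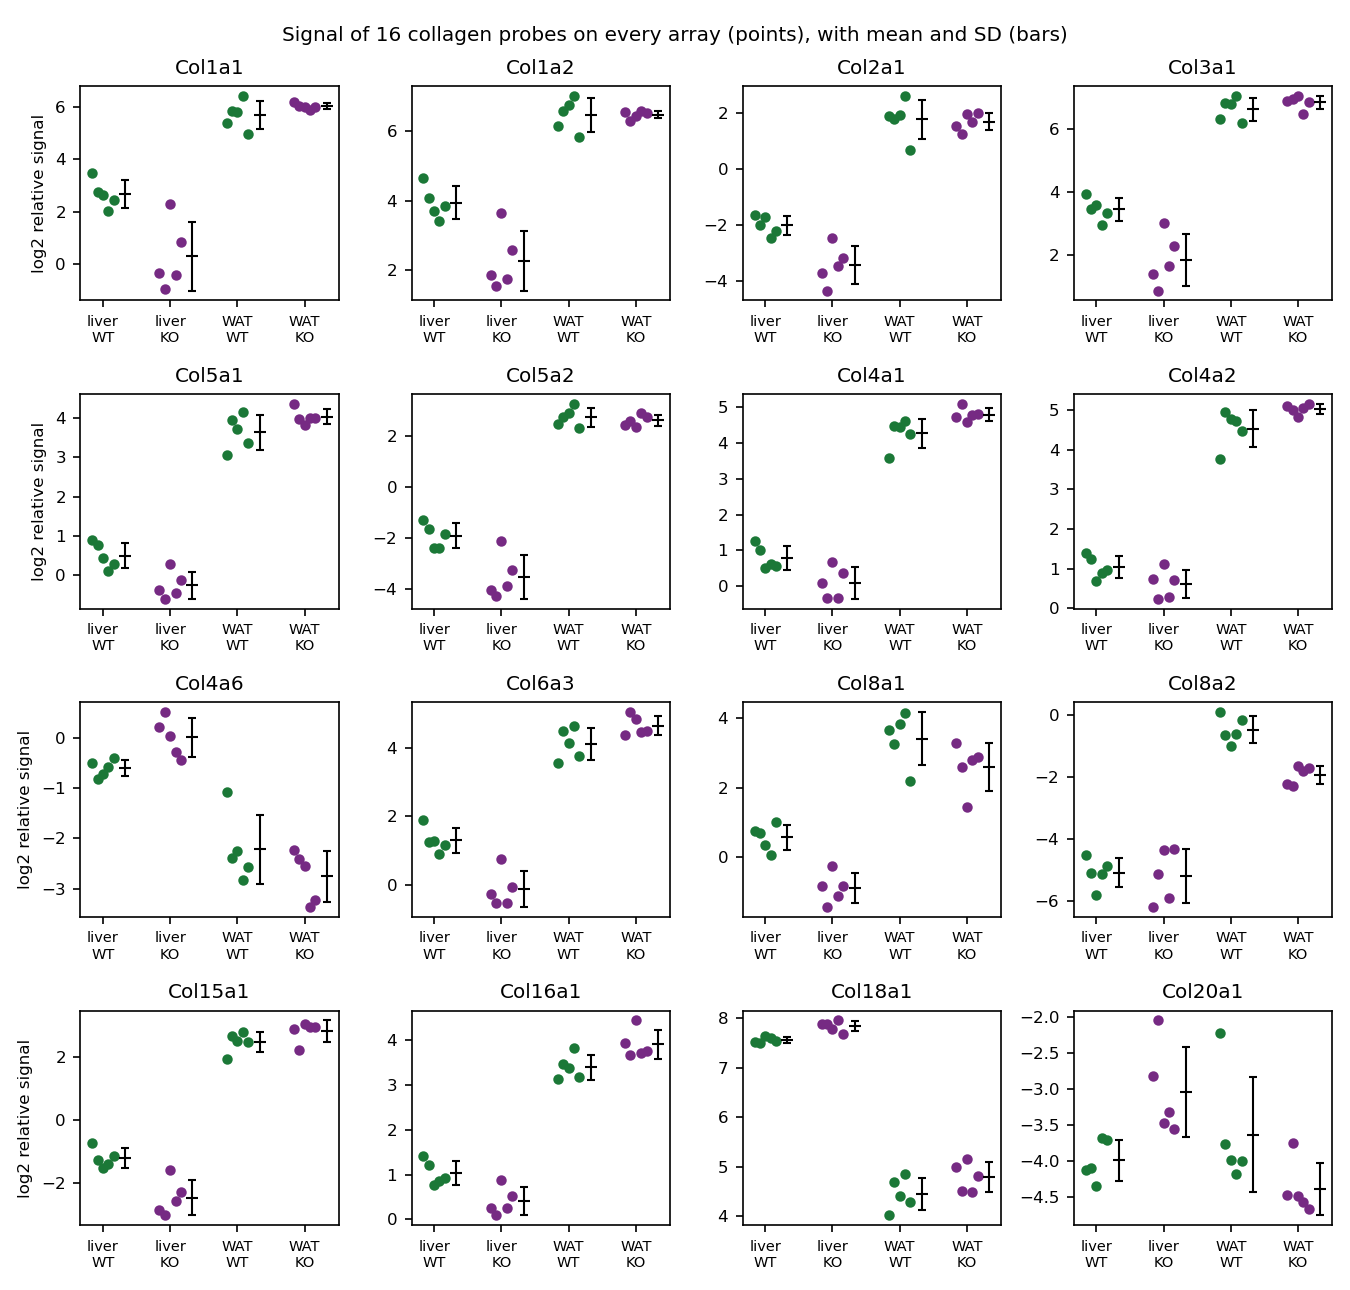
Points give the log2 relative signal (y axis, each panel on its own scale) of 16 collagen genes on each of 5 arrays of WT(HFD) (green) and CD44KO(HFD) (purple) liver and WAT, and bars the mean and SD. In the panels of the 10 genes lower in liver, 1 purple liver point, replicate 3, lies above the other 4 of its group.

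The genes lower in liver moved together from array to array. CD44KO(HFD) replicate 3 had the highest value of its group for 10 of these 10 genes, replicate 2 the lowest for 9, and WT(HFD) replicate 1 the highest of its group for 9. Taken as the median over the 10 genes of the deviation from the WT(HFD) mean, the CD44KO(HFD) livers stood at -1.67, -2.17, -0.38, -1.74 and -1.26, and the WT(HFD) livers at 0.48, 0.11, -0.14, -0.47 and -0.11. For all 10 genes each CD44KO(HFD) array was below the WT(HFD) mean, but for 7 of the 10 genes replicate 3 reached into the WT(HFD) range. How many of all probes ordered the arrays in this way was not counted. Without CD44KO(HFD) replicate 3 the calls over all 24688 probes rose from 3358 to 4647. The standing of that array was thus not shown to be particular to collagen genes.

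**Figure D3:**
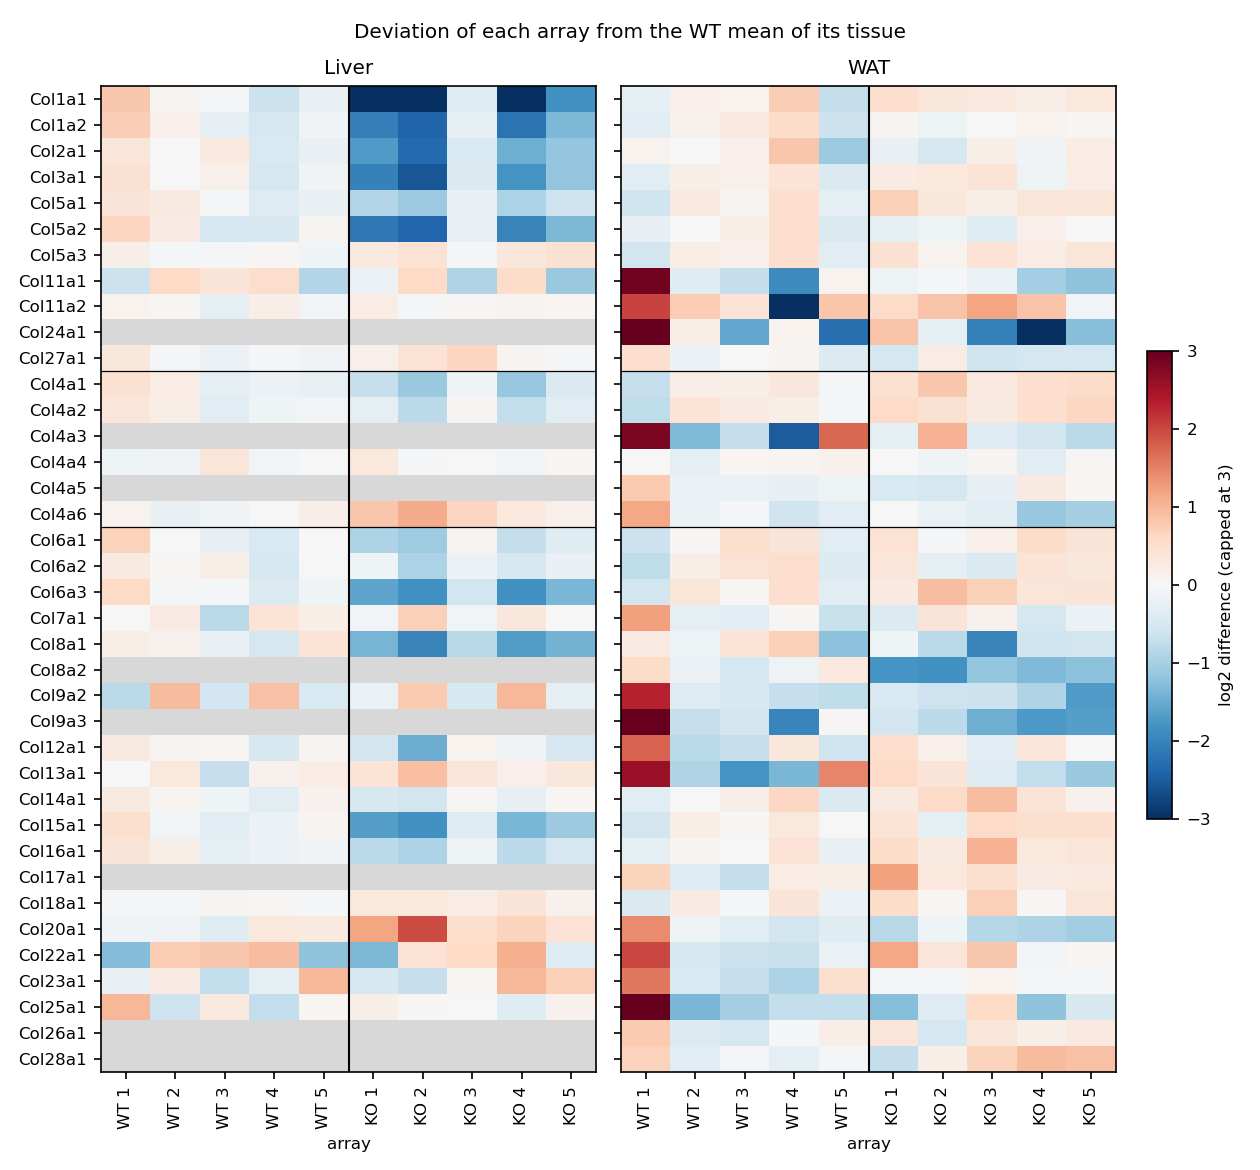
Each cell is the log2 deviation of an array (columns) from the WT(HFD) mean of its tissue for a collagen gene (rows, by class as in the list of differences), with red above, blue below, color capped at 3 and gray not tested. In liver the rows Col1a1 to Col5a2 are blue on CD44KO(HFD) replicates 1, 2, 4 and 5 and pale on replicate 3, and in WAT the array of WT(HFD) replicate 1 is red for Col9a2, Col9a3, Col24a1 and Col25a1 among others.

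Within each genotype the macrophage markers put the arrays in the same order, which was not particular to them. On the WT(HFD) livers the collagen-degrading and TGF-beta lists given below kept that order too. On the CD44KO(HFD) livers those lists did not keep it in full. The mean of the 8 hepatocyte markers reversed it on the WT(HFD) livers (7.43, 7.52, 7.73, 7.75 and 7.72). On the CD44KO(HFD) livers they read 7.95, 7.97, 7.70, 8.04 and 7.82, nearly the reverse. The mean log2 level of 9 macrophage markers was 0.76, 0.61, -0.54, -0.60 and 0.03 on the WT(HFD) livers, replicates 1 to 5, and -1.44, -1.72, -0.42, -1.68 and -0.86 on the CD44KO(HFD) livers. Of the 8 that were tested, Trem2, Gpnmb, Itgax and Lgals3 were lower, while the defining markers Emr1 (now Adgre1) and Csf1r differed by 0.50 and 0.07 (adjusted p = 0.43 and 0.874). For 12 fibroblast markers the range was -0.97 to -0.60 in CD44KO(HFD) and -0.51 to -0.20 in WT(HFD) livers, and 4 of 11 tested were lower, Thy1 (-0.72), Dpt (-1.47), Fbln2 (-0.90) and Dcn (-0.45). The 10 stellate cell markers overlapped between genotypes, 0.30 to 0.75 against 0.49 to 0.83. Of these, Pdgfrb (-0.83) and Colec11 (-0.38) were lower and Ecm1 (0.43) was higher, while Lrat, Reln, Des, Hand2, Ngfr and Acta2 did not pass. Of 7 smooth muscle markers 1 was lower (Tagln, -0.80), of 7 T cell markers 4 were lower, of 7 endothelial markers 0, and of 8 hepatocyte markers 1 was higher, where 5.75% of all probes were lower and 7.85% higher. The part of these cells in the collagen differences was not tested.

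The arrays were spread over 3 slides per tissue, and each liver slide held both genotypes. In WAT, slides D and E held both, and slide F held only CD44KO(HFD) replicates 1 and 4. Genotype and slide can thus not be fully told apart in WAT. On slides A, B and C all 13 collagen genes called in liver differed in the direction of the whole comparison, which their choice on these same arrays favors, so that the signs are no independent support. The median difference of the fibrillar genes was -0.70 on slide A (2 against 2 arrays, with CD44KO(HFD) replicate 3 among them), -1.32 on slide B (2 against 2) and -1.22 on slide C (1 against 1). For Col1a1 the 3 slides gave -1.39, -3.06 and -2.99.

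The genes that make and handle collagen were read from lists drawn up by function. Of 17 tested enzymes and chaperones that fold and modify the chains, 5 were lower in CD44KO(HFD) liver and 0 higher, with a median of -0.17. For this and the lists that follow, all probes in liver gave 5.75% lower and 7.85% higher, with a median of 0.08. They were Serpinh1, the collagen chaperone (-1.05, adjusted p = 0.0103), the prolyl and lysyl hydroxylase genes P4ha1 (-0.51, 0.0441) and Plod2 (-0.78, 0.0493), and P3h3 (-0.62, 0.0185) and P3h4 (-0.46, 0.0287). Of 9 genes that trim procollagen and crosslink fibers, Loxl1 (-1.13, 0.0174) and Loxl2 (-0.90, 0.0307), which form crosslinks, were lower and Pcolce2 (1.40, 0.0492), an enhancer of procollagen cleavage, was higher, with a median of -0.49. Of 7 small proteoglycans and fibril partners, decorin (Dcn, -0.45, 0.0234) and Tnxb (-0.96, 0.0123) were lower, with a median of -0.45.

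Receptors, degrading enzymes and regulators were counted in the same way. Of 8 collagen receptors 5 were lower, with a median of -0.78: Ddr1 (-0.94, 0.0394), Ddr2 (-0.67, 0.0161), Itga11 (-1.01, 0.0295), the leukocyte receptor Lair1 (-0.88, 0.0371) and the uptake receptor Mrc2 (-1.36, 0.0119). Of 7 degrading enzymes and inhibitors 3 were lower, with a median of -0.85: the collagenase Mmp13 (-3.58, 0.0104) and the inhibitors Timp2 (-0.85, 0.0161) and Timp3 (-0.73, 0.0271). Of 10 TGF-beta ligands and matrix regulators 1 was lower, near the share of all probes (5.75%), the receptor Tgfbr2 (-0.78, 0.046), with a median of -0.42. The 9 laminins, nidogens and other partners of type IV collagen gave no call, with 8 below 0 and a median of -0.32.

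**Figure D4:**
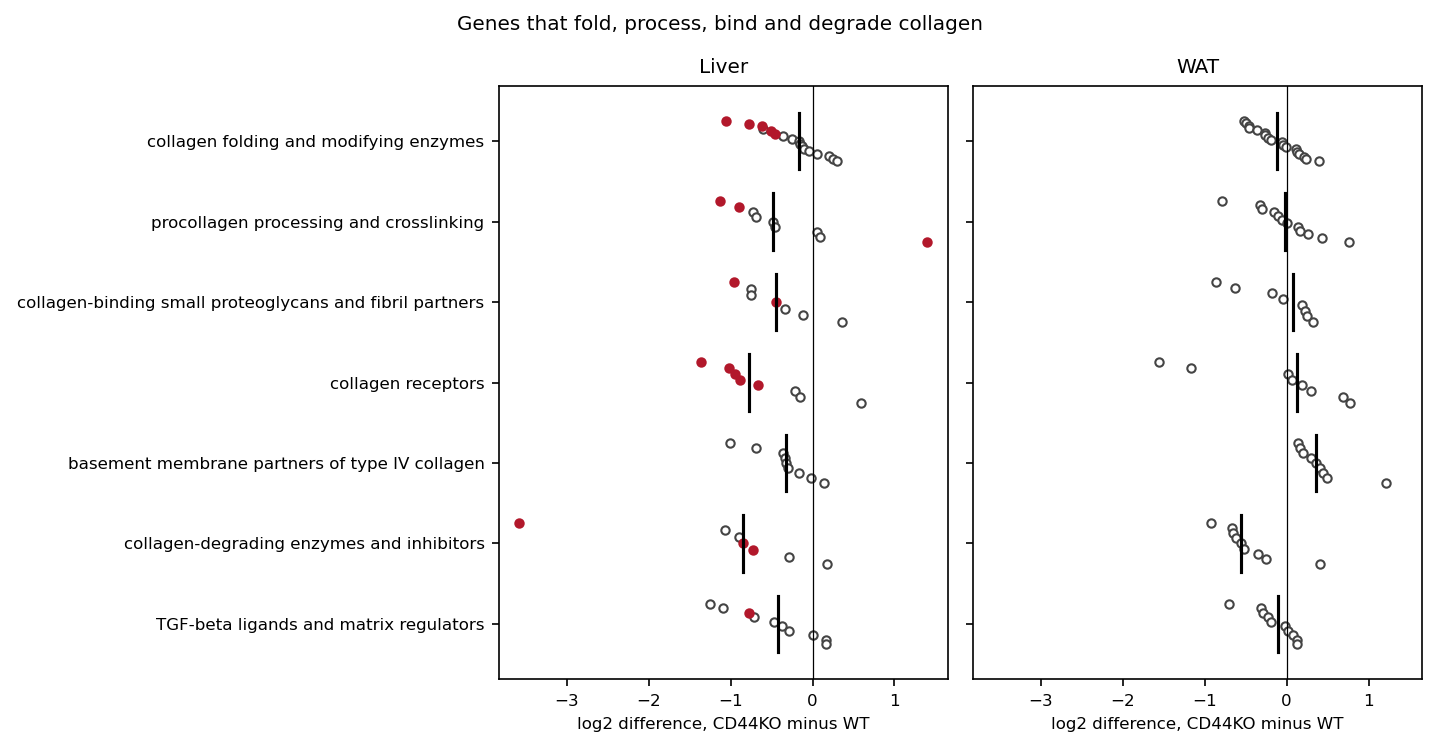
Each point is the difference between CD44KO(HFD) and WT(HFD) mice (x axis, log2 scale, the same in both panels) of a gene of 7 functional lists (y axis), in liver on the left and WAT on the right, filled where the adjusted p was under 0.05, with the median of the list as a line. In liver the medians lie between -0.85 and -0.17, and in WAT no point is filled.

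In WAT 0 of 38 tested collagen genes passed by limma, where 0.0398% of all probes did, and 5 had an unadjusted p under 0.05 (all probes 14.9%). The median difference was 0.05 over the 38 genes, 0.01 for the fibrillar, -0.13 for the type IV and 0.13 for the other genes, and -0.06 over all probes, and 18 of the 38 were below 0, against 55.3% of all probes. With unequal weights for the arrays, limma called 4 lower and 3 higher collagen genes, while it called 10.2% of all probes. In a fit of all 20 arrays it called 1 lower, Col8a2, and 2.44% of all probes lower. Without WT(HFD) replicate 1 the median of the 38 genes was 0.21, again with 0 called, and that of the type IV genes turned from -0.13 to 0.15.

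By their brightest probes the type I genes were bright and even in fat. Col1a1 read 5.39, 5.84, 5.78, 6.41 and 4.98 in WT(HFD) and 6.19, 6.03, 5.97, 5.87 and 5.99 in CD44KO(HFD) fat (0.33 ± 0.24, adjusted p = 0.522). Col1a2 read 6.15, 6.60, 6.76, 7.03 and 5.83 and 6.56, 6.31, 6.45, 6.58 and 6.52 (0.01 ± 0.22, adjusted p = 0.979). For both genes the CD44KO(HFD) arrays fell inside the span of the WT(HFD) arrays on these probes, with SDs of 0.12 and 0.11 against 0.54 and 0.48. A dimmer Col1a2 probe was well above background on 5 WT(HFD) and 0 CD44KO(HFD) arrays of fat. It gave -2.02 ± 0.79 (adjusted p = 0.28 by limma). It read -4.82 in WT(HFD) fat with an SD of 1.84, and was well above background on no liver array. The evenness of Col1a2 is thus that of its brightest probe, and so dim a probe cannot settle it. Other Col1a1 probes gave 0.26 and -0.22 in fat. Col3a1 read 6.30, 6.82, 6.79, 7.05 and 6.19 and 6.88, 6.95, 7.03, 6.48 and 6.84 (0.21 ± 0.20, adjusted p = 0.61). Col5a1 read 3.05, 3.94, 3.72, 4.14 and 3.36 and 4.36, 3.97, 3.83, 4.01 and 3.99 (0.39 ± 0.22, adjusted p = 0.419), and Col5a2 2.51, 2.76, 2.93, 3.28 and 2.33 and 2.46, 2.62, 2.39, 2.91 and 2.78 (-0.13 ± 0.20, adjusted p = 0.749). Of the 10 genes lower in liver, the WAT array of WT(HFD) replicate 4 was the highest of its group for all 10.

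The type IV pair lay above 0 in fat without passing. Col4a1 read 3.59, 4.46, 4.44, 4.61 and 4.24 in WT(HFD) and 4.73, 5.08, 4.57, 4.76 and 4.81 in CD44KO(HFD) fat (0.52 ± 0.21, unadjusted p = 0.0296, adjusted p = 0.288 by limma). Col4a2 read 3.77, 4.94, 4.77, 4.72 and 4.47 and 5.10, 5.00, 4.81, 5.04 and 5.15 (0.49 ± 0.22, unadjusted p = 0.0495, adjusted p = 0.335 by limma). WT(HFD) replicate 1 was the lowest array for both. The 9 partners of type IV collagen in basement membranes were on the same side of 0 in fat, 0 of 9 below it, with a median of 0.36 and none past the threshold. The 7 endothelial markers had a median of 0.67 in fat with 0 of 7 below 0, the 9 adipocyte markers also 0.67 with 0 of 9 below 0, and the 12 fibroblast markers -0.12, with 0 called in each list. The part of these cells in the type IV values was not tested.

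Type VI collagen, abundant around fat cells, did not pass either. Col6a3 read 3.56, 4.48, 4.13, 4.62 and 3.76 in WT(HFD) and 4.38, 5.03, 4.83, 4.47 and 4.49 in CD44KO(HFD) fat (0.53 ± 0.24, unadjusted p = 0.0497, adjusted p = 0.335 by limma). Col6a1 and Col6a2 differed by 0.30 ± 0.24 and 0.09 ± 0.29. Col15a1 read 1.94, 2.68, 2.53, 2.81 and 2.48 and 2.91, 2.23, 3.06, 2.98 and 2.98 (0.34 ± 0.22, adjusted p = 0.467), and Col16a1 3.12, 3.47, 3.38, 3.82 and 3.18 and 3.94, 3.67, 4.44, 3.72 and 3.76 (0.51 ± 0.20, adjusted p = 0.276). The genotypes overlapped for all 3 genes given by array. Col18a1 read 4.02, 4.69, 4.40, 4.84 and 4.28 and 4.99, 4.50, 5.16, 4.49 and 4.81 (0.34 ± 0.21, adjusted p = 0.445), and lay above 0 in fat as in liver.

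Among the brightest probes, the widest gap of a collagen gene in fat was that of Col8a2. It read 0.08, -0.66, -1.02, -0.63 and -0.18 in WT(HFD) and -2.24, -2.29, -1.65, -1.81 and -1.72 in CD44KO(HFD) fat (-1.46 ± 0.23, unadjusted p = 9.29e-05, adjusted p = 0.112 by limma). By the brightest probes it was the 1 gene of 38 whose genotypes did not overlap, against 6.14% of all probes. It gave -1.73 on slide D (2 against 2 arrays) and -1.03 on slide E (1 CD44KO(HFD) against 3 WT(HFD) arrays). It passed as lower in the fit of all 20 arrays and with array weights, where more of all probes passed too, as given above. Its partner Col8a1 read 3.65, 3.25, 3.83, 4.13 and 2.19 and 3.28, 2.60, 1.44, 2.81 and 2.87 (-0.81 ± 0.42, adjusted p = 0.392), with overlap. Col27a1 differed by -0.40 ± 0.22 on its brightest probe (adjusted p = 0.418 by limma), with overlap. The other Col27a1 probes gave -1.455 and -1.374 without overlap of the genotypes (adjusted p = 0.314 and 0.24 by limma). The 8 mesothelial markers on the array were all below 0 in fat, with a median of -2.07 and none past the threshold, and ranged as a mean level from -3.15 to -1.23 in CD44KO(HFD) and from -1.74 to 0.38 in WT(HFD) fat. Their part in the Col8a2 value was not tested.

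Among the other genes in fat, Col2a1, well above background on all 10 arrays, differed by -0.09 ± 0.32, Col5a3 by 0.32 ± 0.21 and Col14a1 by 0.45 ± 0.24. Col4a6 differed by -0.53 ± 0.35 and Col20a1 by -0.76 ± 0.37, both on the other side of 0 from liver. Col9a3, Col24a1, Col9a2, Col25a1 and Col11a1 lay between -1.24 and -0.52 with standard errors of 0.56 to 1.09, and on each of these probes WT(HFD) replicate 1 stood above the mean of its group. Col10a1, Col19a1, Col6a6 and Col9a1 were tested in neither tissue.

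The difference between the tissues was itself tested, as the genotype difference in liver minus that in WAT over all 20 arrays. Its p-values rest on 1 spread per probe for both tissues. The spreads could differ: for Col1a1 the SD was 1.295 in CD44KO(HFD) liver and 0.12 in CD44KO(HFD) WAT. The difference passed for 5 of 38 collagen genes, all more negative in liver, where 1.15% of 28988 probes passed, 0.873% more negative in liver. They were Col1a1 (-2.71 ± 0.64, adjusted p = 0.0476), Col3a1 (-1.81 ± 0.43, 0.0479), Col6a3 (-1.96 ± 0.36, 0.0185), Col15a1 (-1.60 ± 0.35, 0.0368) and Col16a1 (-1.15 ± 0.27, 0.0454). Col4a1, Col5a1 and Col1a2 came next, with -1.22, -1.14 and -1.68 and adjusted p-values of 0.061, 0.0683 and 0.084. The count of 5 rests on most arrays: without single arrays it was 1 or 2 in 16 of 20 fits and 9 without CD44KO(HFD) liver replicate 3, and Col6a3 passed in all 20. The share of all probes that passed was 0.29% to 1.48% in those 16 fits and 2.01% without CD44KO(HFD) liver replicate 3. For Col8a1, lower in liver, the difference between the tissues did not pass (-0.65 ± 0.50, adjusted p = 0.547).

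Levels of the same probe could also be set side by side between the tissues of WT(HFD) mice, although liver and fat were read on different slides, so that tissue and slide cannot be told apart. Of the 30 genes tested in both, 19 read higher in fat, with a median of 2.02 on the log2 scale, and 43.6% of all 23352 probes tested in both did, with a median of -0.22. The 6 fibrillar genes that were lower in CD44KO(HFD) liver were all among the 19. The gene with the widest gap the other way was Col18a1, at 7.56 ± 0.06 in liver and 4.45 ± 0.33 in fat (SD, n = 5).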

How the data were processed

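Total RNA from liver and WAT was hybridised, with Cy3, to 1-colour Agilent mouse arrays, 1 sample an array, and the authors deposited scanner output of Agilent Feature Extraction 9.5.3.1 (build mm7 per the file headers). The processed signal intensity deposited by the authors is background-subtracted by that software and not scaled between arrays, and a deposited table of the series repeats it. From there log2 intensity minus the 75th percentile of the array was computed, control and outlier spots were left out and spots of a probe averaged. Differences were fitted within each tissue with limma 3.58.1 in R 4.3.3 and adjusted over all probes by Benjamini-Hochberg, and the tissue difference over all 20 arrays. The fits were tested on simulated data. The collagen genes, classes and lists were chosen with earlier results of these data known. Genes named are those past 0.05 in a comparison, the genes of types I, III, IV (Col4a1 and Col4a2) and VI, and others singled out after their values were seen. Alternatives changed background correction, scaling, filter, probe choice, blocks and weights, and left out each array. Precision is limited by having 5 arrays a group.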

Additional observations from a re-analysis of the deposited data

Results flagged for a closer look

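Among 136 combinations of a collagen gene and a group of 5 arrays, 14 (10.3%) had 1 array apart by Dixon's criterion. Chance gives about 1 in 20 for a single combination, but these share arrays, so 10.3% cannot be read as an excess. Of the 14, 5 were the array of WT(HFD) WAT replicate 1. That array was also apart in its share of spots well above background (89.5%, the next 69.5%), and on it stood highest Col20a1 (-2.22, the next -3.77), Col22a1 (-1.48, the next -3.68), Col25a1 (-1.60, the next -6.11), Col4a5 (-1.88, the next -2.82) and Col9a2 (-1.09, the next -3.79). In WT(HFD) WAT, Col11a2 was lowest in replicate 4 (-8.00, the next -3.55) and Col4a4 in replicate 2 (-1.39, the next -1.09).

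In CD44KO(HFD) WAT, replicate 2 was lowest for Col15a1 (2.23, the next 2.91) and Col26a1 (-4.07, the next -3.36) and highest for Col20a1 (-3.76, the next -4.47) and Col27a1 (-2.56, the next -3.32). Col17a1 was highest in replicate 1 (-2.69, the next -3.40) and Col23a1 in replicate 3 (-2.42, the next -2.55) of that group. In liver, WT(HFD) replicate 4 was lowest for Col12a1 (-4.21, the next -3.65). These values were all log2 relative signals.

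The genotype difference in liver minus that in WAT passed the threshold for Col1a1 (-2.71), Col3a1 (-1.81), Col6a3 (-1.96), Col15a1 (-1.60) and Col16a1 (-1.15), by the interaction term of limma over 20 arrays.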

How the results depend on the processing

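Col6a3 and Col8a1 were lower in liver under all 12 alternatives other than leaving out an array, and the 10 lower genes fell to 5 with normexp (0 higher, fibrillar median -0.60, other collagens 0.13), to 4 with no filter on dim probes (0 higher, 1 interaction) and to 4 with the replicate number as a block (0 higher, 0 interactions). The share of all probes called lower fell from 5.75% to 1.72%, 1.4% and 2.76% in these 3 fits. Probes called higher fell from 1938 of 24688 to 216 of 24688, 449 of 41174 and 647 of 24688. The labels do not say whether equal replicate numbers pair the samples. Same-numbered deviations had an r of -0.04 to 0.42 in liver and -0.21 to 0.09 in WAT, which cannot decide it. With quantile normalization the type IV median in WAT was 0.32 and 1 interaction passed, and the median of all probes in WAT moved from -0.06 to 0.11. With the percentile over spots well above background on all arrays 1 gene was higher in liver, with 1532 of 24688 probes higher, and 3 interactions passed. In 1 fit of all 20 arrays 0 were higher in liver, with 185 of 24688 probes higher, and 1 lower in WAT, with 2.44% of probes lower. Array weights gave 4 lower and 3 higher in WAT, a type IV median of 0.29 there and 15 interactions. The brightest probe within the tissue gave a fibrillar median of -0.48 in liver and turned Col2a1 to 0.018, and the mean of all tested probes gave -0.60 in liver, -0.32 in WAT and 0 interactions and turned Col4a6 to -0.014. The share of all probes whose interaction passed moved too, from 1.15% in the main fit. It was 0.187% with no filter on dim probes, 0% with the replicate block and 0.838% with quantile normalization. With the percentile over spots well above background it was 1.22%, with array weights 8.52% and with the mean of probes 1.11%. The causes were not tested.

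With single arrays left out, lower genes in liver numbered 3 to 12, higher 0 to 3, interactions 1 to 9 and calls in WAT 0 to 0. Of all 24688 probes in liver, 457 to 1874 were lower and 401 to 2773 higher in these fits. Medians ranged in liver from -1.28 to -0.93 (fibrillar), -0.24 to -0.12 (type IV) and -0.25 to -0.09 (other), and in WAT from -0.15 to 0.13, -0.18 to 0.15 and 0.00035 to 0.33. Interactions numbered 1 without WT(HFD) liver replicate 1, 2 or 5, CD44KO(HFD) liver replicate 1, 2, 4 or 5, WT(HFD) WAT replicate 3 or CD44KO(HFD) WAT replicate 1, 3 or 5, and 2 without WT(HFD) liver replicate 3, WT(HFD) WAT replicate 1, 2 or 5 or CD44KO(HFD) WAT replicate 2. Of all probes, 0.29% to 0.952% passed in the fits with 1 and 0.483% to 1.48% in those with 2. On the dimmest probes the distance to background limits what can be read.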
